A study of Mus musculus with 2 samples.

Results

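The AP-1 family was followed through *Fos*, *Fosb*, *Fosl1*, *Fosl2*, *Jun*, *Junb*, *Jund*, *Atf3*, *Batf* and *Batf3* in the E15.5 mouse pancreas. These 10 genes were taken by name, each from the probe sets that carry its symbol and no other, and all 10 were measured, by 1 probe set per gene, among 19938 genes in all. RNA of whole pancreata had been hybridized to Affymetrix mouse gene arrays, and the comparison was between 1 array of wild-type (WT) embryos and 1 array of *Mafk*-Tg embryos, all on an ICR background. The *Mafk*-Tg embryos carry a FLAG-tagged murine *Mafk* cDNA behind the rat insulin I promoter, so that the transgene is driven in insulin-producing cells while the arrays measure every cell of the pancreas. The design text gives 3 pancreata per genotype, and the sources used here do not say whether those were pooled for an array. With 1 array per genotype there was no spread between replicates, no test could be run, and every value below is a description of these 2 arrays.

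AP-1 is a pair of basic leucine zipper proteins. A FOS protein needs a JUN partner to bind DNA, whereas JUN proteins can also pair with each other, and ATF3 and the BATF proteins join in the same way. *Fos*, *Fosb*, *Jun*, *Junb* and *Atf3* are immediate early genes: growth factors, stress or tissue handling switch on their transcription without new protein synthesis, and their messages are short-lived. Small MAF proteins such as MAFK are zipper proteins too, and their recognition element contains the AP-1 site.

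The array values are on the log2 scale, and the median of all probe sets was 6.01 in WT and 6.01 in *Mafk*-Tg. *Mafk* itself read 6.75 on the WT array and 7.00 on the *Mafk*-Tg array, a log2 change of 0.25, under 1.2-fold. *Xist* read 4.40 in the WT array against 11.30, and the Y-linked *Eif2s3y*, *Uty* and *Kdm5d* had differences of -5.68, -4.67 and -3.93. Genotype and this sex-linked difference cannot be told apart in any value below. Differences are always given as *Mafk*-Tg minus WT on the log2 scale, and the cutoff was 1.2-fold, or 0.26 on the log2 scale, in either direction. In whole tissue, fewer cells of a type and less RNA per cell cannot be told apart.

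Of the 10 AP-1 genes, *Fos* and *Fosb* were at least 1.2-fold lower in *Mafk*-Tg, the other 8 differed by less, and 0 were at least 1.2-fold higher. The median difference of the 10 genes was -0.11, against -0.01 for all genes, with 7 genes below 0 and 3 above. Of the 10 genes 6 lay below the median level of the arrays, and the 4 at or above it had a median difference of -0.01, with 2 genes below 0 and 2 above, against -0.01 for all genes at or above it. Over all 19938 genes, 10.5% were at least 1.2-fold lower and 7.96% at least 1.2-fold higher. Beside this background, a count of 2 in 10 genes does not by itself set the family apart.

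**Figure D1:**
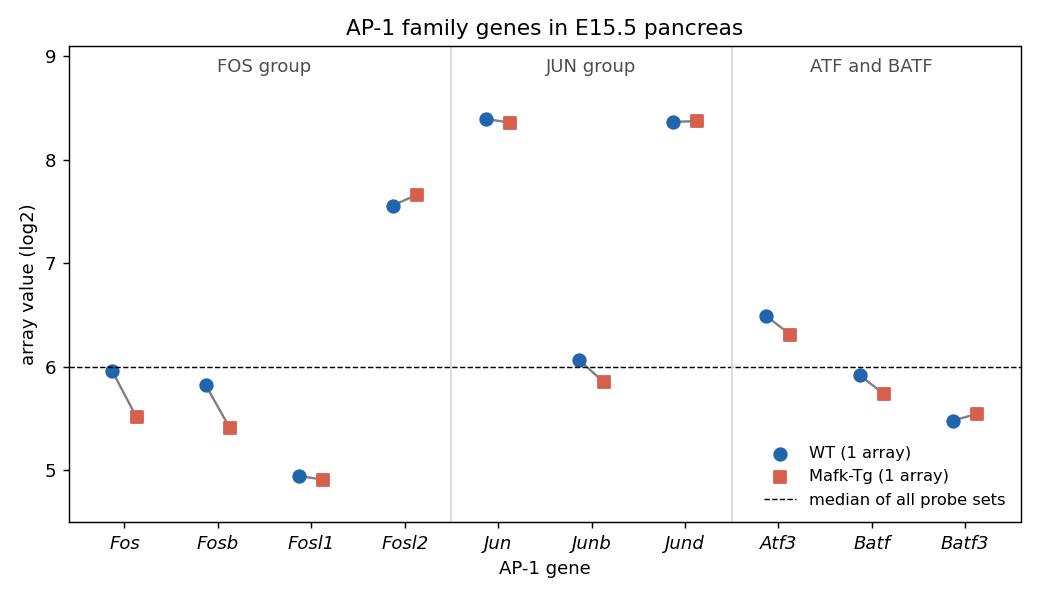
Array value (log2) of each AP-1 gene, with circles for the WT array, squares for the *Mafk*-Tg array, a line joining the values of a gene and a dashed line at the median of all probe sets. *Fos* goes from 5.96 to 5.51 and *Fosb* from 5.82 to 5.41, while *Jun* and *Jund* have nearly the same value on both arrays.

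In the FOS group, *Fos* was at 5.96 on the WT array (log2) against 5.51 on that of *Mafk*-Tg, differing by -0.45 or 1.36-fold. *Fosb*, whose full-length and truncated proteins act as dimer partners of JUN proteins like FOS itself, read 5.82 on the WT array and 5.41 on the *Mafk*-Tg array, a log2 change of -0.42 or 1.33-fold. The WT array was the higher one for both genes. In all, 613 genes, or 3.07% of all, had a lower difference than *Fos*, and 738 genes, or 3.70%, had a lower difference than *Fosb*. *Fos* and *Fosb* were the lowest of the 10 genes, and in both arrays they lay below the median of all probe sets, where the robust SD of the difference over all genes was 0.24, against 0.15 at or above the median. The other 2 members of the group were under the cutoff. *Fosl1*, which encodes FRA-1, a FOS protein without a strong activation domain, was at 4.95 on the WT array (log2) against 4.91 on that of *Mafk*-Tg, differing by -0.04 at a level far below the median. *Fosl2*, which encodes the related FRA-2, read 7.56 on the WT array and 7.66 on the *Mafk*-Tg array, a log2 change of 0.10, the highest of the 10 genes. *Fosl2* was the 1 gene of the FOS group above the median level, and the group's median difference was -0.23.

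Genes near *Fos* and *Fosb* in level show how far dim probe sets scatter. Among the 3513 genes with a mean log2 level from 5.5 to 6.5, 10.4% were at least 1.2-fold lower and 7.97% at least 1.2-fold higher, and the robust SD of their difference was 0.20. This SD is a spread over genes, not over replicates. Of all 11412 genes at or above the median level, 5.87% were at least 1.2-fold lower and 5.58% at least 1.2-fold higher. The 4 AP-1 genes at or above the median level, *Fosl2*, *Jun*, *Jund* and *Atf3*, were all under 1.2-fold.

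**Figure D2:**
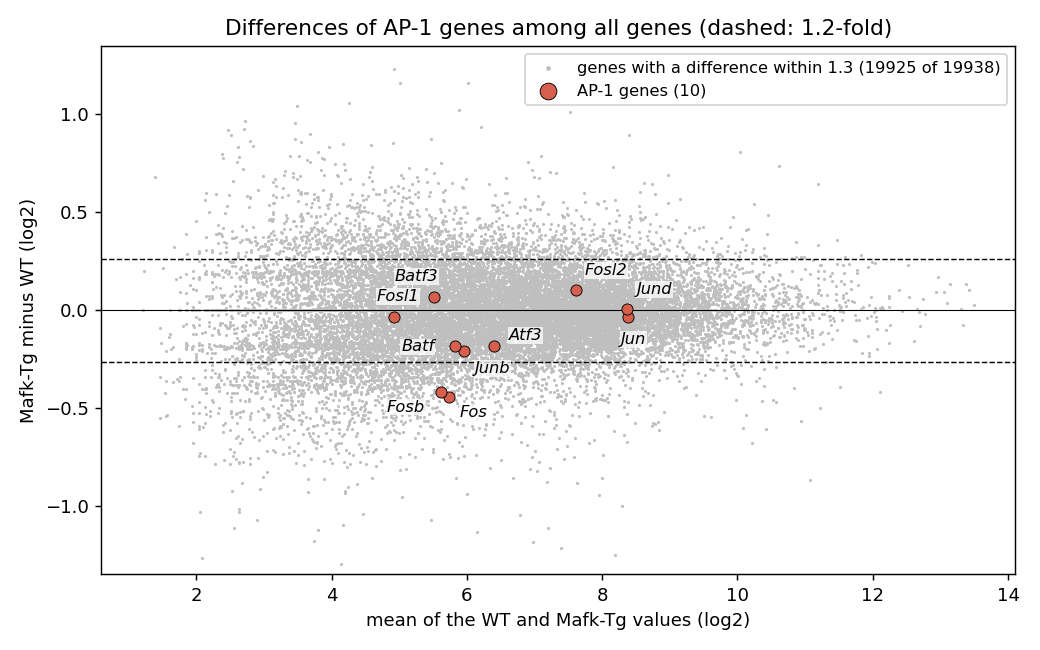
Log2 difference (*Mafk*-Tg minus WT) against the mean log2 value of each gene, with the 10 AP-1 genes named, all other genes in grey and dashed lines at 1.2-fold. *Fos* and *Fosb* lie together below the lower line at mean values of 5.74 and 5.61, and the axis leaves out genes that differ by more than 1.3.

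In the JUN group, the partners that FOS proteins need, *Jun* was at 8.39 on the WT array (log2) against 8.36 on that of *Mafk*-Tg, differing by -0.04. *Jund*, which encodes the JUN protein that many resting cells make steadily, had 8.37 on both arrays and a difference of 0.01. Both genes lay well above the median level, where differences scatter less. *Junb*, an immediate early gene whose product can oppose that of *Jun*, read 6.06 on the WT array and 5.85 on the *Mafk*-Tg array, a log2 change of -0.21 or 1.16-fold. *Junb* was thus in the direction of *Fos* and *Fosb* but under the cutoff, and 15.0% of all genes had a lower difference. The group's median difference was -0.04.

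*Atf3*, a stress-induced gene whose protein often represses, was at 6.49 on the WT array (log2) against 6.31 on that of *Mafk*-Tg, differing by -0.18 or 1.13-fold. *Batf*, which encodes a zipper protein that pairs with JUN proteins in lymphocytes and has no activation domain, read 5.92 on the WT array and 5.74 on the *Mafk*-Tg array, a log2 change of -0.18 or 1.14-fold. Both were under the cutoff, with 19.0% of all genes having a lower difference than *Atf3* and 18.7% a lower one than *Batf*. *Batf3*, known for its role in dendritic cell development, was at 5.48 on the WT array (log2) against 5.55 on that of *Mafk*-Tg, differing by 0.06. *Fos* and *Batf* lie on chromosome 12 with *Jdp2*, a gene of a repressive JUN partner, between them, and *Jdp2* had 6.64 in WT and 6.63 in *Mafk*-Tg. *Atf3* and *Batf3* are near each other on chromosome 1. The differences of these neighbors were thus of unequal size. Those of *Atf3*, *Batf* and *Batf3* lay within the robust SD of 0.20 among genes with a mean level from 5.5 to 6.5. The signs of these 3 genes are therefore not read.

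The stretches before the starts of the AP-1 genes were read for the sites through which such genes are known to answer to signals. RefSeq (GRCm38.p6) promoters were at hand for 9 of the 10 genes, and for *Fosl1* none was used. The 250 bases before the start were searched on both strands for the AP-1 site TGACTCA, for the cAMP response element (CRE) TGACGTCA, for its first letters TGACG, called the CRE core here, and for the CArG box of serum response factor. Every full CRE contains a CRE core. The AP-1 site, the full CRE and the CArG box were in 0 of the 9 stretches, and in 4.46%, 1.55% and 1.47% of all 32851 promoters. Only exact matches were counted, so a site with a changed letter, such as tgacatca in the stretch of *Jun*, was not. Sites more than 250 bases before the start lay outside the search, so these genes may hold such sites farther out. The CRE core was in 5 of the 9 stretches, those of *Fos*, *Fosb*, *Junb*, *Atf3* and *Batf*, and in 17.8% of all promoters. *Fos* and *Fosb*, the genes past the cutoff, are shown with *Jun*, which barely differed, each from 250 bases before the start to the base before it, with the CRE core in capitals:

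Fos, chr12:85473640-85473889 (plus strand): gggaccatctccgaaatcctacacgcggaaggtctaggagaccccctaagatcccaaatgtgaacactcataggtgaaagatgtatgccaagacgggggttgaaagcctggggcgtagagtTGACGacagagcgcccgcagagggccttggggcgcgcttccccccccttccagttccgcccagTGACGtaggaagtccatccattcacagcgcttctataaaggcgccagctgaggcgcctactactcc
Fosb, chr7:19310046-19310295 (minus strand): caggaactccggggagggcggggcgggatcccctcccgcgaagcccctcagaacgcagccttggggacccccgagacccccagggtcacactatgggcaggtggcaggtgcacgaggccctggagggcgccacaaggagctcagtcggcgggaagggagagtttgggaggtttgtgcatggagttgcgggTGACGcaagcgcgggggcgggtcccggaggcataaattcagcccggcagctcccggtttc
Jun, chr4:95052223-95052472 (minus strand): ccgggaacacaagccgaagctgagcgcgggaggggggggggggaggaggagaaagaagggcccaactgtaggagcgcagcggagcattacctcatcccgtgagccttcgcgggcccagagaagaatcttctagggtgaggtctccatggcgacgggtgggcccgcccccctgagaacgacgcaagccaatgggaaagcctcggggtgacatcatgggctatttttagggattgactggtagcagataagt

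In *Fos* the cores start 129 and 66 bases before the start of the gene, and in *Fosb* the core starts 60 bases before it, while the stretch of *Jun* holds none. In *Junb* and *Batf* it starts 106 and 98 bases before the start, and in *Atf3* it lies on the other strand, from 7 to 3 bases before the start. The 5 genes with a core were the 5 lowest of the 9, with a median difference of -0.21, and the 4 without one had a median of 0.04. This order is a description of 9 genes, and the differences of *Atf3* and *Batf* lay within the robust SD of 0.20 given above. Among all 15614 measured genes with a promoter, 24.1% held a core. Of the 3760 genes with a core 6.25% were at least 1.2-fold lower, against 11.7% of the 11854 without. At least 1.2-fold higher were 6.52% and 8.17%, so genes with a core passed the cutoff less often in both directions. The medians were 0.00 and -0.02. Over all genes, those with a core were thus lower in *Mafk*-Tg less often than those without. The groups were not matched for level, and a part of the core in the differences was not tested.

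**Figure D3:**
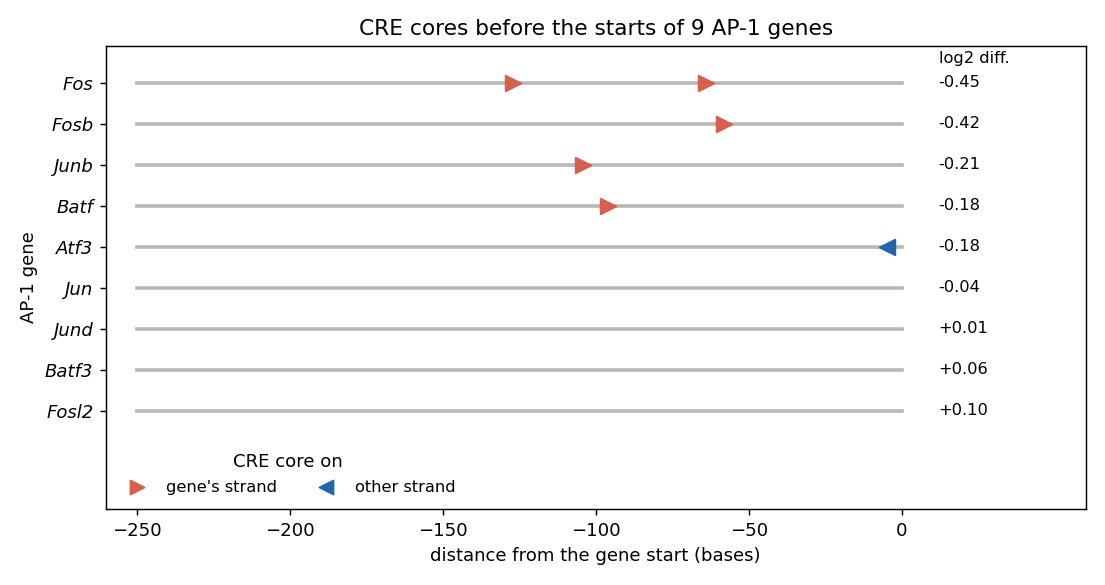
Position of each CRE core, in bases from the gene start, in the 250 bases before the starts of 9 AP-1 genes, ordered by their log2 difference (*Mafk*-Tg minus WT, at the right), with arrows for the strand. The 5 genes with a core, from *Fos* at -0.45 to *Atf3* at -0.18, stand above the 4 without one.

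Other immediate early genes were more often lower than higher, in a list written with earlier results of these data known. Of 44 measured genes of a list of 46, 8 were at least 1.2-fold lower in *Mafk*-Tg and 1 was higher, or 18.2% and 2.27% beside 10.5% and 7.96% of all genes, and their median difference was -0.08. *Ppp1r15a*, which encodes the phosphatase subunit GADD34 of the stress response, read 6.68 on the WT array and 6.10 on the *Mafk*-Tg array, a log2 change of -0.58. *Nfkbia*, the gene of the NF-kappaB inhibitor, had -0.41, the nuclear receptor gene *Nr4a1* had -0.38, and *Dusp1*, the gene of a phosphatase that switches off MAP kinases, had -0.33. The lower genes were thus of several protein families. *Gadd45b*, a stress gene, was the 1 gene at least 1.2-fold higher, at 7.54 on the WT array against 7.93. *Egr1* and *Ier2*, which serum factors induce together with *Fos*, had differences of 0.06 and -0.11. Both lay within the robust SD of 0.20 among genes with a mean level from 5.5 to 6.5, so their signs are not read. Heat shock genes, such as *Hspd1* at 0.24 and *Hspb1* at -0.19, had 0 of 12 past the cutoff and a median of 0.01.

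**Figure D4:**
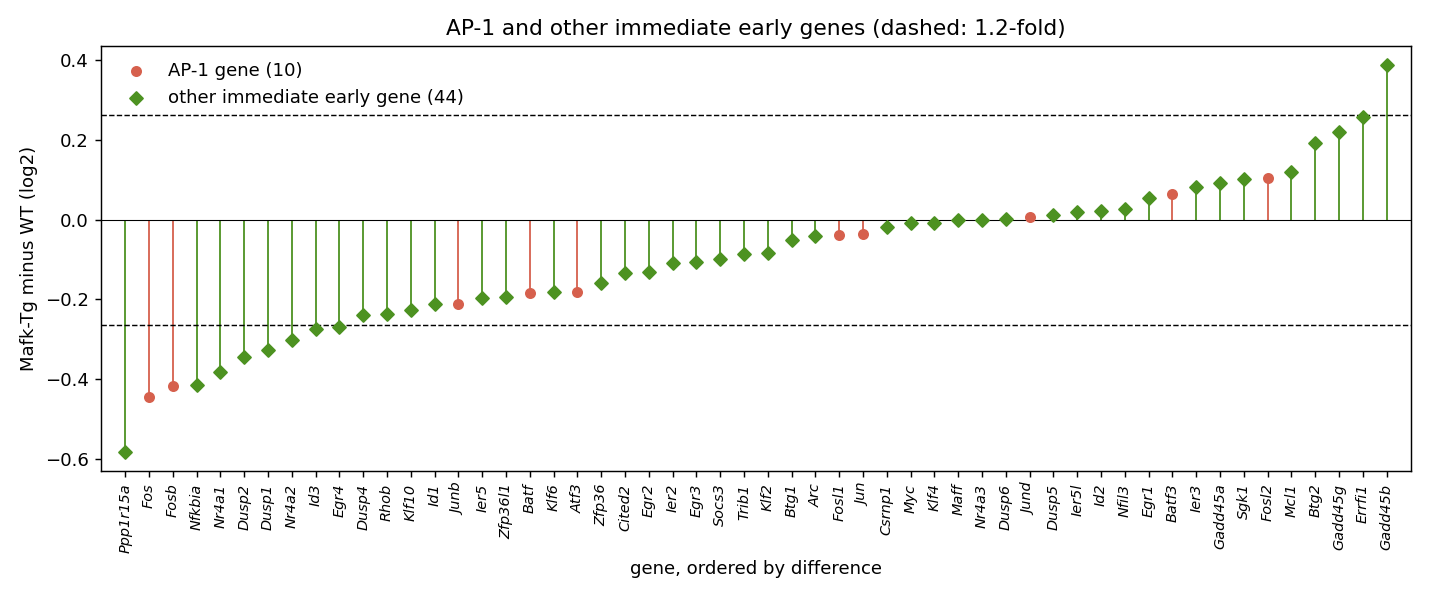
Log2 difference (*Mafk*-Tg minus WT) of the 10 AP-1 genes (circles) and of 44 other immediate early genes (diamonds) in order, from the 2 arrays, where dashed lines mark 1.2-fold. *Ppp1r15a* is lowest at -0.58, followed by *Fos* and *Fosb*, and *Gadd45b* is highest at 0.39.

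Among other zipper factors, 3 of 37 measured genes were at least 1.2-fold lower and 0 higher, with a median difference of -0.05. The lower share was 8.11%, under the 10.5% of all genes, so this count does not set these factors apart. *Nfe2*, a factor of erythroid cells and megakaryocytes that pairs with small MAF proteins, was at 6.80 on the WT array (log2) against 6.15 on that of *Mafk*-Tg, differing by -0.65. *Cebpb* had -0.36, and *Mafa*, the large MAF gene of mature β-cells, had -0.47 at a mean level below the median. *Mafg* and *Maf* had -0.15 and -0.18, and *Creb5* and *Bach2* had -0.25 and -0.20, all under the cutoff. *Maff* and *Batf2* had the same value on both arrays to the last deposited digit, as had 687 genes, or 3.45% of all. None of the 10 AP-1 genes was among these, and how such equal values arose was not tested.

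Genes that act upstream of AP-1 barely differed. Of all genes 10.5% were at least 1.2-fold lower and 7.96% at least 1.2-fold higher. Of 28 measured genes of growth factor, MAP kinase and serum response signalling, 0 passed 1.2-fold either way, and the median was -0.04. The largest differences among them were -0.25 for the p38 kinase gene *Mapk11*, -0.23 for *Elk3*, a partner of serum response factor, -0.21 for the kinase gene *Rps6ka5*, 0.18 for *Cops5*, which encodes a JUN-binding subunit of the COP9 signalosome, and 0.18 for *Map2k4*. These are message levels, and the activity of the kinases was not measured.

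Of 33 measured genes known in other settings as AP-1 targets, 8 were at least 1.2-fold lower and 2 were higher. These are 24.2% and 6.06%, beside 10.5% and 7.96% of all genes, in a list also written with earlier results of these data known. The summed value of the targets on the linear scale was 23542 in WT and 23786 in *Mafk*-Tg, a ratio of 1.01. Bright genes weigh most in this sum, among them *Mt2* and *Mt1*, at 0.23 and 0.20, and *Vim*, at -0.20. Of the 33 genes, 21 were below 0 and 12 above. The median difference of the targets was -0.11. *Lgals3*, the gene of galectin-3, read 7.69 on the WT array and 7.04 on the *Mafk*-Tg array, a log2 change of -0.65. The heme oxygenase gene *Hmox1* had -0.43, *Tgfb1* had -0.39, the gelatinase gene *Mmp9* had -0.36 and the fibronectin receptor gene *Itga5* had -0.31. Macrophages express *Lgals3*, *Hmox1* and *Tgfb1*, and neutrophils *Mmp9*. The 2 higher genes, *Mmp1a* and *Il6*, lay far below the median level.

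Most markers of blood cells and of liver were also lower in *Mafk*-Tg. Of 27 measured leukocyte markers, 19 were at least 1.2-fold lower and 0 higher, with *Ctsg* at -1.25 and *Srgn* at -0.87. The lower share was 70.4%, beside 10.5% of all genes. The summed value of the 27 markers on the linear scale was 10855 in WT and 7059 in *Mafk*-Tg, a ratio of 0.650, and 4 of them lay below the median level. The 8 leukocyte markers under the cutoff were *Itgam*, *Itgb2*, *Mrc1*, *Aif1*, *Cx3cr1*, *Cd68*, *Cd14* and *C1qa*, from -0.25 to 0.09, and all of these are expressed by macrophages or monocytes. Among the 19 past it were other macrophage or monocyte genes, such as *Lyz2* at -0.68, *C1qb* at -0.435, *Csf1r* at -0.31 and *C1qc* at -0.26. Of 15 erythroid markers, 12 were lower (80.0%) and 0 higher, with a ratio of 0.719 between sums of 4846 and 3482 and 1 marker below the median level. Of 16 hepatocyte markers, 10 were lower (62.5%) and 1 higher (6.25%), with a ratio of 0.860. Leukocytes carry *Fos*, *Fosb*, *Junb* and *Batf* as well as many of the target genes, and the part of these cells in the lower values was not tested.

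Markers of the other tissue layers differed less or went the other way. Of 20 mesenchyme markers 2 were lower, of 15 endothelial markers 1 was lower and of 10 mesothelial markers 0 were, each with 0 higher, and their medians were -0.10, -0.08 and -0.03. Of all genes 7.96% were at least 1.2-fold higher. Acinar markers were higher in 8 of 21 genes (38.1%) and lower in 0, with a median of 0.24. Endocrine markers were higher in 10 of 18 (55.6%) and lower in 2 (11.1%), with a median of 0.26. *Fos* and *Fosb* were at least 1.2-fold lower, as were most blood and liver markers and 10.5% of all genes. *Jun* and *Jund* were close to the 11 reference genes, whose median was 0.00. Whether any of these values vary together could not be tested with 1 array per genotype.

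**Figure D5:**
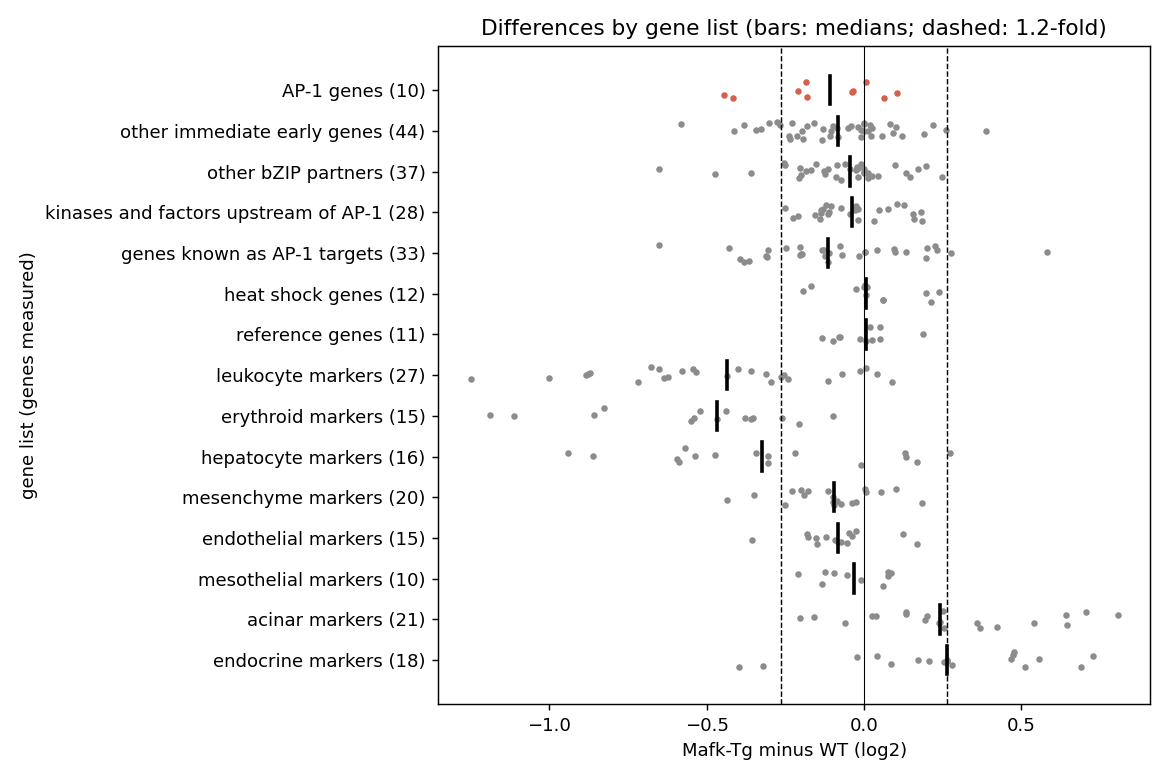
The 15 gene lists, with a point for every gene at its log2 difference between *Mafk*-Tg and WT (the former minus the latter), a bar for the list's median and dashes at 1.2-fold. The AP-1 genes have a median of -0.11 over all 10 and of -0.01 over the 4 at or above the median level, and the former lies between those of leukocyte markers at -0.43 and endocrine markers at 0.26.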

How the data were processed

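Whole pancreas RNA of E15.5 WT and *Mafk*-Tg embryos was measured on Affymetrix mouse gene arrays, with 1 array per genotype. Normalization and summary to probe sets were done by the authors with Affymetrix Expression Console (algorithm and version not given in the sources used here), and the deposited values are on the log2 scale. Depth does not apply to arrays, and their number limits the precision. Of 35556 probe sets, 21789 carry 1 gene symbol in the platform table, 1621 several and 12146 none. A gene's value is the mean of its probe sets with exactly 1 symbol, which gave 19938 genes. No further scaling was applied, no test was run and the cutoff was 1.2-fold.

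The AP-1 genes and all gene lists were chosen with earlier results of these data known. Named beside them are up to 5 genes of each list with the largest differences at or above the median level. MAF genes, *Jdp2*, *Batf2*, *Egr1*, *Ier2* and sex-linked genes are named too. The leukocyte markers under the cutoff, *Il6*, *Mmp1a*, *Mt1*, *Mt2*, *Vim*, *Lyz2*, *C1qb*, *Csf1r*, *C1qc* and the genes named for a count were added after their values were seen. Symbols of probe sets came from the platform table, and chromosomes, the order of neighboring genes and promoters from RefSeq (GRCm38.p6). Protein sequences were not used here.

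Alternatives were quantile normalization, equal medians, subtraction of a loess curve (span 0.3) of difference against mean, the brightest probe set of a gene, probe sets with several symbols, leaving out genes below the median level, cutoffs of 1.5-fold and 1.1-fold and leaving out X and Y genes. The steps were tested on simulated data. The scripts ran in Python 3.11.15 with pandas 2.3.3, numpy 2.4.6, matplotlib 3.10.9 and statsmodels 0.14.6.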

Additional observations from a re-analysis of the deposited data

How the results depend on the processing

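No paired analysis was possible because each genotype has 1 array. Under equal medians, quantile normalization, the loess, the brightest probe set and probe sets with several symbols, *Fos* ranged from -0.45 to -0.43 and *Fosb* from -0.42 to -0.40, and these were the 2 AP-1 genes at least 1.2-fold lower. Both lie below the median level, so 0 AP-1 genes were lower when genes below it were left out, and the family median went from -0.11 to -0.01. At 1.5-fold 0 AP-1 genes were lower, and at 1.1-fold 5 were. With genes below the median level left out, the targets had 0 higher and 5 lower, the medians of leukocyte and hepatocyte markers were -0.54 and -0.47, and 637 of all genes were higher and 670 lower. Quantile normalization left 0 hepatocyte markers higher, and the brightest probe set put 1 upstream gene higher.

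At 1.5-fold, 139 of all genes were higher and 253 lower. Other immediate early genes then had 0 higher and 0 lower, other zipper factors 1 lower, and targets 0 higher and 1 lower. Leukocyte, erythroid and hepatocyte markers had 10, 4 and 4 lower, with 0 hepatocyte markers higher, mesenchyme and endothelial markers 0 lower, acinar markers 4 higher, and endocrine markers 2 higher and 0 lower. At 1.1-fold, 4140 of all genes were higher and 5117 lower. Other immediate early genes then had 4 higher and 16 lower, other zipper factors 4 and 11, upstream genes 4 and 6, targets 6 and 13, and heat shock genes 3 and 2. Mesenchyme markers had 1 higher and 7 lower, endothelial markers 1 and 5, mesothelial markers 1 lower, acinar markers 14 higher and 2 lower, hepatocyte markers 2 higher, and reference genes 1 higher.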
